A study of Mus musculus with 3 samples.

Results

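The genes described here were grouped as intestinal identity genes: 31 mouse genes for regulators, brush-border proteins, lipid carriers, transporters, hormones and secretory products of the gut. They were asked for peaks of the transcription factor GATA4 in chromatin of the stomach mucosa. A member's peaks are those that the HOMER annotation in the deposit credits to it by gene name, HOMER being a program that gives each peak to the gene with the nearest transcription start site (TSS). By this rule 22 of the 31 genes held 59 of the 50869 peaks in the list, and 9 genes held none. The rule uses gene names only.

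The study mapped GATA4 on chromatin of the stomach mucosa by chromatin immunoprecipitation and sequencing. All 3 libraries came from adult mice of 10 to 12 months with the labelled genotype G4fb/fb R26 Bira/Bira, in which GATA4 carries a Flag and biotin tag and the biotin ligase BirA attaches the biotin. The groups were GATA4 pull-down on streptavidin beads, with replicates 1 and 2, and 1 input library of chromatin without pull-down. Replicate 1 and the input carry the same code in the labels, and replicate 2 another. No group lacked the tag or the ligase. RNA was not measured, so neither the labelled tissue nor the expression of any gene below could be checked, and a peak shows enrichment of DNA and not activity of a gene.

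GATA4 is a zinc-finger factor that binds DNA at the core letters GATA and takes part in the development of the heart, the stomach and the proximal small intestine. In the mouse jejunum it is known to maintain absorptive genes such as Lct and to hold back genes of the ileum such as Slc10a2 and Fgf15. CDX1 and CDX2 are the homeodomain factors that set intestinal fate, and their appearance in the stomach accompanies intestinal metaplasia. Most genes described here are known for high expression in the gut epithelium and low expression in the normal stomach.

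The authors' caller pooled both pull-down libraries, with 38770530 tags after filtering, and called peaks against 23023152 input tags. Each peak therefore has 1 value, with no replicate error and no test between samples. The values are the authors' fold enrichment of the pooled pull-downs over the input, and the number of pull-down tags over the summit, recovered from the deposited pileup. The intervals beside tag counts are exact 95% Poisson intervals and cover counting error only. In 44 of the 59 peaks (74.6%, against 74.8% of other peaks) the input level plus 1, which is the denominator of the fold, was under 3.1, near the 2.98 that is the lowest in the whole list. For those peaks the fold follows the tag count directly. All coordinates of peaks are in mm9, counted from 1.

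Intestinal identity genes had GATA4 peaks near their start sites at a lower share than protein-coding genes as a whole, and the peaks they had near there were mostly modest. Of the 31 genes, 12 (38.7%) had a credited peak centred within 10 kb of the TSS, against 64.4% of 21031 protein-coding genes. Within 1 kb, 10 genes (32.3%) had one, against 57.4% of all. With peaks of at least 5-fold within 10 kb the count was 6 of 31 (19.4%), against 41.5%. With peaks in the top 10% of the list by −log10 q-value, taken as values above 9.66, the count was 1 of 31 (3.23%), the guanylin gene Guca2a, against 17.8% of all genes. The gap narrowed with distance: 16 of 31 (51.6%) had a peak within 50 kb, against 70.9%, and 22 of 31 (71.0%) had one at any distance, against 73.7%. These counts describe 1 list of members, chosen with earlier results of these data known, and were not tested against other lists.

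**Figure D1:**
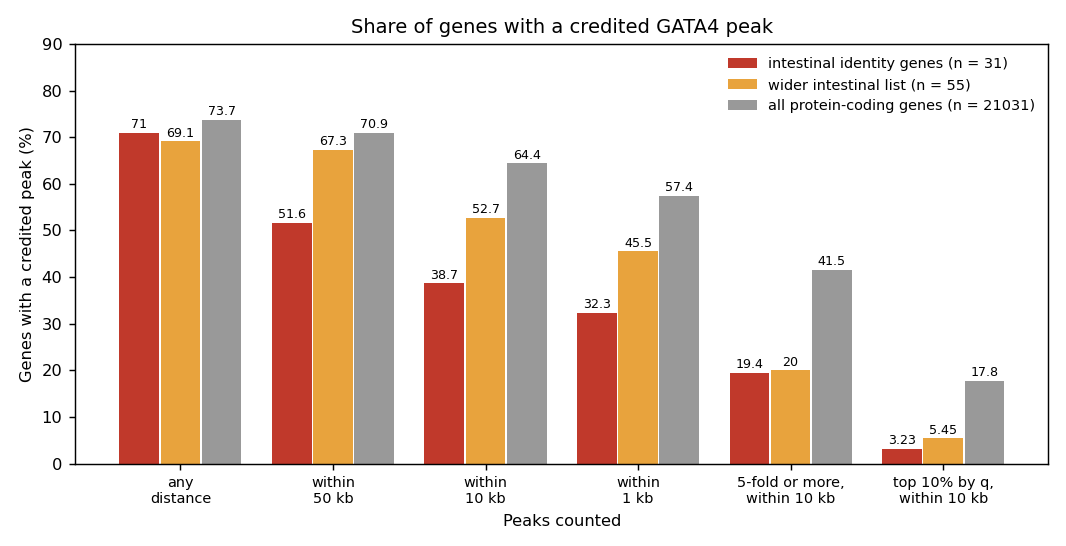
Percent of genes with a credited GATA4 peak (y axis) under 6 ways of counting peaks (x axis), for the 31 intestinal identity genes, the wider list of 55 intestinal genes and all 21031 protein-coding genes. Within 10 kb the intestinal identity genes stand at 38.7% and all protein-coding genes at 64.4%, while at any distance they stand at 71.0% and 73.7%.

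The peaks within 10 kb of these genes had a lower median fold than other peaks within 10 kb. The 28 member peaks within 10 kb had a median fold of 4.23, against 4.69 for the 27787 other peaks within 10 kb. Within 1 kb the medians were 4.14 for 15 member peaks and 5.23 for 16127 other peaks, and the median tag counts were 22 and 28. Beyond 10 kb the 31 member peaks had a median fold of 4.29, against 4.16 for 23023 other peaks. Over all distances, 13 of the 59 peaks (22.0%) reached 5-fold, against 30.4% of other peaks, and 4 (6.78%) were in the top 10% by −log10 q-value, against 9.86%. The direction differed by distance. Within 10 kb, 6 of 28 member peaks (21.4%) reached 5-fold, against 40.6% of other peaks. In the top 10% was 1 of these 28 (3.57%), against 15.1%. Beyond 10 kb, 7 of 31 (22.6%) reached 5-fold, against 17.9%, and 3 (9.68%) were in the top 10%, against 3.5%. Peaks of neighbouring members share a locus, so the 59 are not independent of each other. For the 12 genes with a peak within 10 kb, the median of the strongest such fold was 4.83, with a range of 2.81 to 9.30. Over 13540 protein-coding genes with such a peak it was 5.51.

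**Figure D2:**
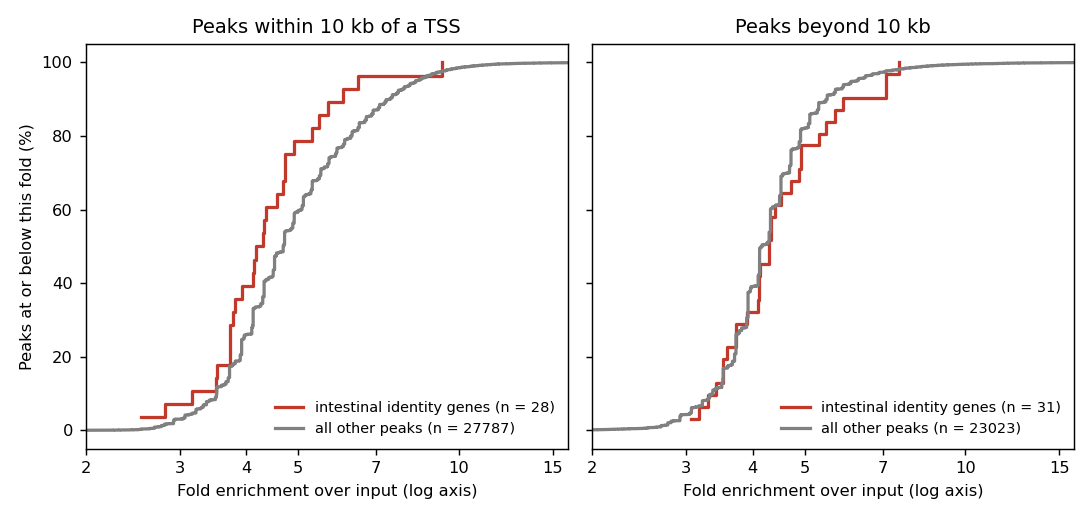
Cumulative percent of peaks (y axis) by fold enrichment over input (x axis, log scale), for peaks credited to the intestinal identity genes and all other peaks, within 10 kb of a TSS on the left and beyond it on the right. Within 10 kb the curve of the intestinal identity genes lies left of the other for most of its length (medians 4.23 and 4.69), and beyond 10 kb the curves run together (4.29 and 4.16).

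By annotation class, 29 of the 59 peaks (49.2%) were intergenic, against 31.2% of all peaks, and 10 (16.9%) were intronic, against 31.3%. Promoters, as HOMER defines them, held 8 (13.6%, against 16.6% of all peaks). Exons held 11 (18.6%, against 12.7%) and transcription end sites 1 (1.69%, against 2.17%). Repeats held 17 of the 59 (28.8%), against 19.5% of other peaks, and 14 of these were L1 elements (23.7%, against 11.7%). None of the 17 repeat peaks lay within 10 kb of a TSS, and few repeat peaks of other genes did: 1262 of 9884. Olfm4 alone accounted for 8 of the 14 L1 peaks.

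**Figure D3:**
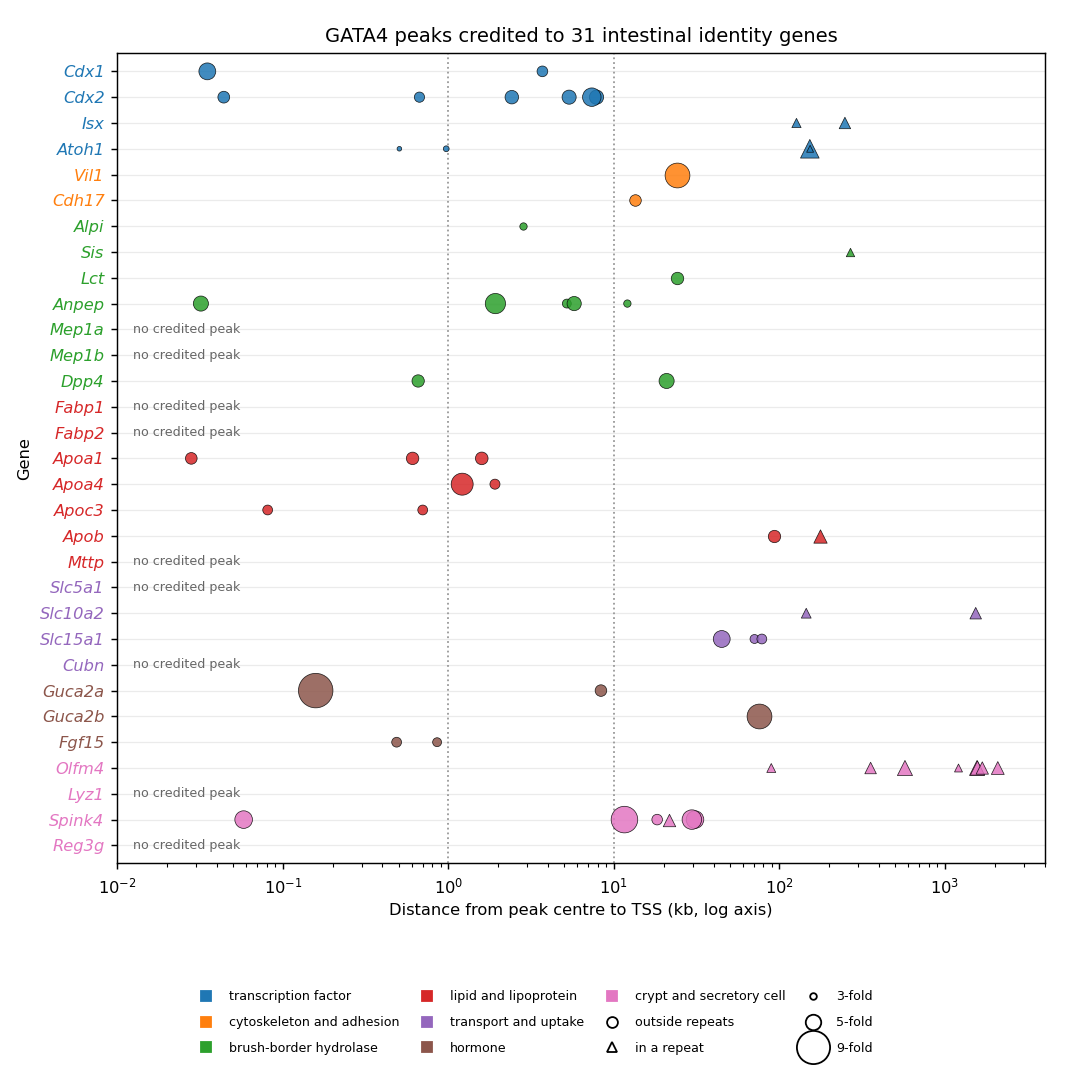
Each of the 59 credited peaks by its distance from the TSS (x axis, kb, log scale) and gene (y axis, coloured by role), with symbol area growing with fold enrichment and triangles for peaks in repeats. Dotted lines mark 1 and 10 kb. Guca2a has the largest symbol, at 0.158 kb, all 8 Olfm4 peaks are repeat peaks beyond 89 kb, and 9 genes have no credited peak.

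Among the hormones, Guca2a had the strongest peak of all 31 genes. Guca2a encodes guanylin and its neighbour Guca2b encodes uroguanylin, peptides that act on the guanylate cyclase of the gut epithelium. The Guca2a peak lay in the promoter (chromosome 4, 119309896 to 119310463), centred 0.158 kb upstream of the TSS, with 45 pull-down tags (32.8 to 60.2) and 9.30-fold enrichment. It ranked 795th by fold and 958th by −log10 q-value (16.4) in the list, and 1.66% of all peaks were at least as enriched. A second peak credited to Guca2a, 8.35 kb upstream at the transcription end site of Foxj3, had 19 tags and 4.12-fold enrichment. Guca2b had no credited peak near its own TSS, which lay 21.2 kb from that of Guca2a on the opposite strand. Its single peak lay 74.9 kb upstream in a CpG island (119406044 to 119406892) and reached 7.11-fold with 34 tags (23.5 to 47.5). Fgf15, the ileal hormone that restrains bile acid synthesis, had a peak 0.855 kb upstream at 3.52-fold (22 tags) and one 0.487 kb downstream, in intron 1, at 3.72-fold (17 tags). Both Fgf15 peaks lay below the list's median in fold: 89.3% and 82.7% of all peaks were at least as enriched.

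The sequence upstream of Guca2a is shown because it holds matches to the GATA motif and the gene has the strongest peak of the 31. The letters AGATAA and TGATAA were searched on both strands in the 250 bases before the TSS, in RefSeq promoters of build GRCm38.p6. Sequences were found for 25 of the 31 genes; Cdx1, Apoc3, Mep1b, Fgf15, Cdh17 and Spink4 had none in that table. Of these 25, 6 (24.0%) held at least 1 match, against 2469 of 16853 protein-coding genes (14.7%). The promoters of Guca2a, Lct, Dpp4, Mep1a and Slc10a2 are given from 250 bases upstream to the base before the TSS, 5′ to 3′ on the gene's strand, with the matches in capitals. Lyz1 held the other match. TTATCT and TTATCA are the same letters read on the opposite strand.
Guca2a: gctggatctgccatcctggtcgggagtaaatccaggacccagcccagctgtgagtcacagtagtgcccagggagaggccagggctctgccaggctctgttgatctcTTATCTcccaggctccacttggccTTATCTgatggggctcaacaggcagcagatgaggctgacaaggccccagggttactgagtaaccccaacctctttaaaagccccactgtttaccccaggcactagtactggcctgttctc
Lct: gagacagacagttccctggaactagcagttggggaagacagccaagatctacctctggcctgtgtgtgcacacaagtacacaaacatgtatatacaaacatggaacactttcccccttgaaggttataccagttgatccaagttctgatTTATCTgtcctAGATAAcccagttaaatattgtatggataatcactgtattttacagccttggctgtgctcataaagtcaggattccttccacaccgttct
Dpp4: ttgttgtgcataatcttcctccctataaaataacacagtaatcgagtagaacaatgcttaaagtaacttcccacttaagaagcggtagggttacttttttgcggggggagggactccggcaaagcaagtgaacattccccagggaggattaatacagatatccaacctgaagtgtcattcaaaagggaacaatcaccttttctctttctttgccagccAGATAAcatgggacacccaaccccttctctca
Mep1a: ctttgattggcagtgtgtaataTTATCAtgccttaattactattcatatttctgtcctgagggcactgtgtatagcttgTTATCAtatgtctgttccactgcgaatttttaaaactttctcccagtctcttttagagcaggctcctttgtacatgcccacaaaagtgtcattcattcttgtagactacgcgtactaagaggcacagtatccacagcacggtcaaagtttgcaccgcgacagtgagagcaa
Slc10a2: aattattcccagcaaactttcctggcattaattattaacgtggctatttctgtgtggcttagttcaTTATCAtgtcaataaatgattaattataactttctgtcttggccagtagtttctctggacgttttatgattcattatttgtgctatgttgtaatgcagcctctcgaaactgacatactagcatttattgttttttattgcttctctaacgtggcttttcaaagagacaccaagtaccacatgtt

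Guca2a held 2 matches on the opposite strand, with first bases 144 and 120 bases upstream of the TSS. The summit of its promoter peak in mm9 lay 140 bases upstream of the TSS implied by the annotation, that is, inside the first match if both builds place the TSS at the same base, which was not checked by alignment. Lct, the gene of the milk-sugar enzyme lactase, held matches 101 and 90 bases upstream, yet its only credited peak lay 24.1 kb away in exon 7 of 17. Mep1a held matches 228 and 171 bases upstream and was credited with no peak. Slc10a2 held a match 184 bases upstream, and its nearest credited peak lay 145.1 kb away. Dpp4 held a match 32 bases upstream, with a peak centred 0.657 kb downstream of the TSS. Of the 8 genes with both a promoter sequence and a credited peak within 10 kb, 2 held a GATA match, and of the other 17, 4 did. The same search was made for other letters. Letters read by CDX factors, TTTATG or TTTATT, were in 28.0% of the 25 promoters, against 22.4% of all. GTTAAT, part of the HNF1 motif, was in 24.0%, against 5.87%. A match is a run of letters and not a shown binding site.

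The 4 transcription factors all had credited peaks, against 73.7% of all protein-coding genes, and 3 of 4 had one within 1 kb, against 57.4%. Cdx2 had 6 peaks, all within 10 kb, spread from the promoter across the gene to 7.85 kb downstream of the TSS. The strongest of these, intergenic beyond the gene's end (chromosome 5, 148111209 to 148111734), had 27 tags (17.8 to 39.3) and 5.68-fold enrichment. The other 5 ranged from 3.81-fold to 4.72-fold, and the one at the Cdx2 promoter (148118703 to 148119036) had 20 tags and 4.16-fold. Cdx2 thus had a row of modest peaks and none in the top 10% of the list. Cdx1 had a promoter peak (chromosome 18, 61195464 to 61196313) with 25 tags (16.2 to 36.9) and 5.31-fold enrichment, which at 850 bp was the longest peak of all members. A second Cdx1 peak lay 3.70 kb upstream at 3.92-fold.

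Atoh1, the factor that directs cells to the secretory lineage, had peaks of 2.54-fold and 2.81-fold in its single exon, 0.506 and 0.971 kb from the TSS. They had 24 and 22 tags, about the number behind the median peak, but input levels plus 1 of 6.0 and 5.0. Of all peaks in the list, 99.6% and 98.3% were at least as enriched as these. The other peaks credited to Atoh1 lay 152.5 and 153.2 kb away in an L1Md_A repeat, the first (chromosome 6, 64831526 to 64831851) at 5.71-fold with 27 tags. Isx, an intestine-specific homeobox gene, was the nearest gene of 2 repeat peaks, 126.7 and 248.6 kb upstream, at 3.59-fold and 4.09-fold.

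Neither of the 2 genes for brush-border structure and adhesion had a peak within 10 kb, against 64.4% of all protein-coding genes. Vil1 encodes villin, which bundles actin in microvilli. Its single peak fell within intron 19 of 19 (chromosome 1, 74479830 to 74480103), at 24.0 kb from the start site, with 34 tags (23.5 to 47.5), 7.11-fold enrichment and a −log10 q-value of 10.5. It was among the 4 member peaks in the top 10%. Cdh17, which encodes liver-intestine cadherin, had 1 peak in intron 3 of 17, 13.5 kb from the TSS, with 19 tags and 4.12-fold enrichment.

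Brush-border hydrolases differed from gene to gene: 3 of 7 had a peak within 10 kb, against 64.4% of all protein-coding genes, and 5 had one at any distance, against 73.7%. Anpep, the gene of aminopeptidase N, had 5 peaks. The strongest lay 1.92 kb upstream (chromosome 7, 86988887 to 86989438), with 29 tags (19.4 to 41.6) and 6.07-fold enrichment. A promoter peak (86987087 to 86987326) reached 4.92-fold with 23 tags, and peaks 5.20 and 5.75 kb upstream reached 3.52-fold and 4.72-fold. The fifth, in intron 14 of 19, had 3.17-fold enrichment over an input level plus 1 of 5.0. A further peak in exon 20 of 20 of Anpep (3.72-fold) was credited to Mesp2, whose TSS was nearer. Dpp4, the gene of dipeptidyl peptidase 4, had peaks 0.657 kb downstream of the TSS at 4.29-fold and 20.8 kb downstream at 4.92-fold. Alpi, the intestinal alkaline phosphatase gene, had 1 peak in its last exon, 2.81 kb from the TSS, at 3.17-fold. The sugar-digesting enzymes had none that near: the Lct peak in exon 7 reached 4.32-fold with 20 tags, and Sis, the sucrase-isomaltase gene, was credited with 1 peak in an L1Md_T repeat 268.3 kb away, at 3.41-fold. Mep1a and Mep1b, which encode the meprin subunits, were credited with no peak.

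Among lipid and lipoprotein genes, the peaks credited to them within 10 kb of a TSS were all in the apolipoprotein cluster on chromosome 9. Apoa1, Apoc3 and Apoa4 lie side by side there, and 7 peaks credited to them fell within 14.3 kb (46036590 to 46050935). The strongest was in intron 2 of 2 of Apoa4 (46050001 to 46050278), 1.21 kb from its TSS, with 32 tags (21.9 to 45.2), 6.47-fold enrichment and a −log10 q-value of 9.34. The second Apoa4 peak, in exon 3 of 3, reached 3.77-fold with 20 tags. Apoa1 had 3 peaks of 4.14-fold to 4.36-fold, at the promoter and in exons 3 and 4 of 4, each with 20 or 21 tags. Apoc3 had a promoter peak and an intron peak, both with 17 tags and 3.72-fold enrichment. The TSS of Apoc3 lay 6.67 kb and that of Apoa4 12.2 kb from that of Apoa1, so the same peaks fall within 10 kb of more than 1 gene: within 10 kb of the Apoc3 TSS there were 5 peaks of its neighbours beside its own 2. Apob, whose product is the scaffold of chylomicrons, had its nearest credited peak 92.4 kb away at 4.29-fold and another 175.4 kb away in an L1Md_T repeat at 4.52-fold. Fabp1 and Fabp2, which encode fatty acid binding proteins of liver and gut, and Mttp, which loads lipid onto apolipoprotein B, had no credited peak.

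**Figure D4:**
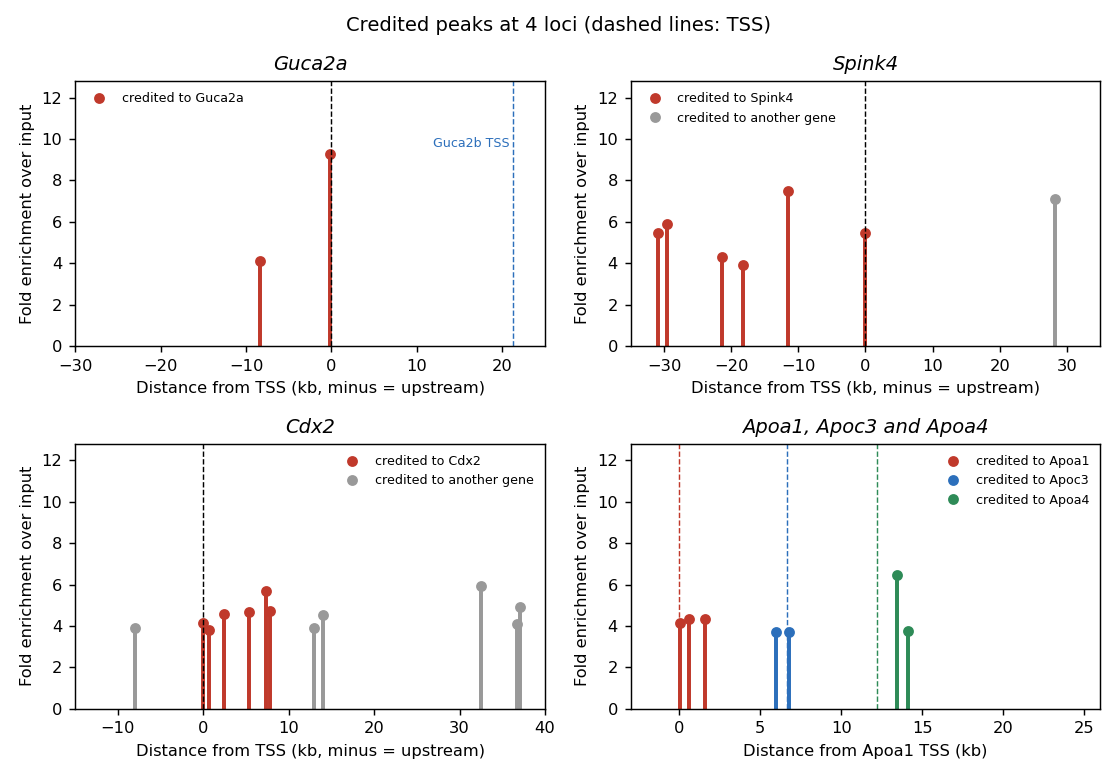
Fold enrichment over input (y axis) of peaks by position (x axis, kb from the TSS in the direction of transcription, or from the Apoa1 TSS for the apolipoprotein cluster) at 4 loci, with dashed lines for start sites. Guca2a has 1 tall promoter peak at 9.30-fold, Spink4 a row of 6 peaks from 30.9 kb upstream to the promoter, Cdx2 peaks of 3.81-fold to 5.68-fold and the apolipoprotein cluster 7 peaks led by Apoa4 at 6.47-fold.

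None of the 4 transporter and uptake genes had a peak within 10 kb, against 64.4% of all protein-coding genes. Slc15a1, the peptide transporter PEPT1, was credited with 3 peaks 44.8 to 78.3 kb upstream, all of them inside the neighbouring gene Dock9. The strongest of the 3 (chromosome 14, 121949065 to 121949487), in a Dock9 intron, had 25 tags (16.2 to 36.9) and 5.31-fold enrichment. Slc10a2, the bile acid transporter of the ileum, was credited with peaks in an RLTR6-int repeat 145.1 kb downstream of its TSS (3.72-fold) and in an L1Md_T repeat 1532.6 kb upstream (4.11-fold). Slc5a1, the sodium-glucose transporter SGLT1, and Cubn, the gene of the uptake receptor cubilin, were credited with no peak.

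Of the 4 crypt and secretory genes, Spink4 had a row of peaks and the others had none near. Thus 1 of 4 had a peak within 10 kb, against 64.4% of all protein-coding genes. Spink4 encodes a small protease inhibitor of goblet cells. Its 6 peaks ran from 30.9 kb upstream to the promoter, and 4 of them reached 5-fold. The strongest (chromosome 4, 40855323 to 40855698), intergenic and 11.6 kb upstream, had 36 tags (25.2 to 49.8), 7.50-fold enrichment and a −log10 q-value of 11.4. The promoter peak (40866835 to 40867227) had 26 tags and 5.48-fold enrichment, and peaks 29.6 and 30.9 kb upstream reached 5.91-fold and 5.48-fold. The remaining 2, at 18.3 and 21.4 kb, reached 3.90-fold and 4.32-fold, the second in an RLTR23 repeat. Olfm4, a marker of intestinal stem cells, was credited with 8 peaks, more than any other member, but all were in L1 repeats, from 89.2 to 2083.6 kb downstream of its TSS. Their fold ranged from 3.30 to 4.92 and their tags from 15 to 28. Lyz1, the Paneth cell lysozyme gene, and Reg3g, an antimicrobial lectin gene, were credited with no peak. Lyz1 has a close paralogue, Lyz2, beside it, and the placing of tags that match both was not given in the sources used here.

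The 9 genes with no credited peak lay in wide intervals without peaks, or, for Mttp, at the edge of one. The interval around each was taken from the last peak credited to a gene on one side to the first peak credited to a gene on the other, by the order of genes in the RefSeq table of GRCm38.p6, assuming the same order in mm9. It measured 533.3 kb at Cubn, 523.9 kb at Reg3g, 289.0 kb at Mep1a, 212.7 kb at Mep1b, 193.8 kb at Fabp2 and 140.1 kb at Slc5a1. It was 136.3 kb at Lyz1, 127.4 kb at Fabp1 and 77.7 kb at Mttp. The median gap between neighbouring peaks over the genome was 11.2 kb, and 90% of gaps were under 136.9 kb. A longer gap is more likely to be met at any given gene than in a count of gaps, so these values are a description only. Mttp differed from the other 8: the peak that ends its interval (chromosome 3, 137806376 to 137806780), at 5.48-fold with 26 tags, is annotated as the promoter of an Mttp transcript but credited to Trmt10a, whose TSS lies 0.076 kb from it. A second such peak, 0.497 kb from the Trmt10a TSS, reached 4.26-fold. The fewest tags over any summit in the list were 14, so sites with fewer tags are not seen at this depth.

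A wider list held 55 other intestinal genes, for brush border, lipid and sterol handling, transport, goblet and Paneth cells and the crypt. These too had peaks within 10 kb at a lower share than all protein-coding genes. The list was chosen with earlier results of these data known, so it is not independent support. Within 10 kb, 29 of 55 (52.7%) had a credited peak, against 64.4% of all protein-coding genes, and within 1 kb 25 (45.5%), against 57.4%. Peaks of at least 5-fold within 10 kb were found at 11 (20.0%), against 41.5% of all protein-coding genes, and 3 (5.45%) had one in the top 10%, against 17.8%. At any distance 38 of 55 (69.1%) had a peak, against 73.7%. The median strongest fold within 10 kb was 4.72, against 5.51 over all protein-coding genes with such a peak. By group, 5 of 5 crypt genes had a peak within 10 kb, 7 of 11 lipid and sterol genes, 7 of 14 transport genes, 5 of 14 brush-border genes and 5 of 11 goblet and Paneth genes. The strongest was at the promoter of Dgat2, which makes triglyceride, at 8.50-fold with 41 tags. It was followed by the fatty acid transport gene Slc27a4 (7.46-fold, exon 1 of 13), the monoacylglycerol acyltransferase gene Mogat2 (6.67-fold, intron 1 of 5) and Slc40a1, the iron exporter ferroportin (6.51-fold, promoter). The stem cell receptor gene Lgr5 reached 6.47-fold in exon 1 of 18, the actin bundler gene Espn 6.15-fold in intron 3 of 9 and the peptidase gene Ace 5.89-fold at its promoter. Abcg8, a sterol exporter, reached 5.68-fold and Dgat1 5.51-fold, both at promoters, and the stem cell factor gene Ascl2 5.11-fold at its promoter. Smoc2, another crypt gene of the list, tied with Ascl2 at 5.11-fold, in exon 1 of 13. Several of these genes, among them Dgat1, Dgat2, Slc40a1 and Ace, are expressed outside the gut as well. Among genes of this list with no credited peak were Mgam, Apoa5, Npc1l1, Clca1 and Mmp7.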

How the data were processed

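Both GATA4 pull-down libraries and the input were aligned to mm9 with Bowtie2, per the submitters' processing notes. Per the file headers, the authors pooled the pull-downs and called peaks with MACS2 2.1.0.20140616 at a q-value limit of 0.05, keeping 1 tag per position and scaling each pull-down tag to 0.594. The pileup was deposited as coverage in scaled tags. The authors' fold is a ratio of pull-down to local input, and their −log10 q-values come from the same caller. The name of the −log10 q-value column was lost to a spreadsheet error in the deposited file; it was identified because 10 times its value, cut to a whole number, equals the score in the deposited HOMER table for all 50869 peaks. Positions, lengths and distances in bp are other deposited values.

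Pileup over the scaling factor gave whole tags within 0.02 in all 50869 peaks. Input level plus 1 is pileup plus 1, over fold. TSS positions in mm9 followed from peak centres, distances and strand for 21 genes. Genes were matched by Entrez ID to RefSeq (GRCm38.p6); 21031 protein-coding genes with a curated transcript formed the background. The top 10% held 5015 peaks because of ties. Every member is reported, and of the wider list the 10 genes strongest within 10 kb, with Smoc2, which tied with the last of them. Members and lists were chosen with earlier results of these data known. No test was run, since replicates were pooled. Python 3.11.15, pandas 2.3.3 and scipy 1.17.1 were used; TSS recovery and motif search were tested on simulated data.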

Additional observations from a re-analysis of the deposited data

How the results depend on the processing

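The count of 12 members with a credited peak within 10 kb became 22 with peaks at any distance, 6 with a −log10 q-value of at least 5, 6 with at least 5-fold and 1 with the top 10% of peaks. The wider list's 29 of 55 became 13, 11 and 3 under the last 3 of these. The 13540 of 21031 protein-coding genes became 15499 at any distance and 9371 with a −log10 q-value of at least 5. They became 8719 with at least 5-fold and 3736 with the top 10%. The median strongest fold of 4.83 became 9.30 with the top 10%, where 1 gene was left. These settings narrow or widen the peaks counted. With 1 kb, 50 kb or no repeat peaks, the counts and the median stayed within 1.5 times these values. Without olfactory and vomeronasal receptor genes, where the protein-coding count alone was recomputed, it was 13447 of 19570 genes, against 13540 of 21031 with them. That share was higher than the share with them. Counting peaks credited to any gene left the member count at 12, but start sites could be placed only for 21 genes that had a credited peak. The 9 genes with none could not gain one, so this count says nothing about stability. Mttp is among those 9, although peaks credited to Trmt10a are annotated as the promoter of an Mttp transcript. No paired analysis was possible because the authors pooled both pull-downs into 1 list, so no replicate could be left out either.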

Other observations

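Several strong peaks near these genes were credited to a neighbour. Within 50 kb of the Vil1 TSS there were 10 peaks of other genes, up to 9.69-fold, at 12.0 kb upstream and credited to Mir26b, and none within 10 kb. Within 50 kb of the Fgf15 TSS there were 18, up to 6.71-fold at 43.0 kb in exon 1 of the cyclin gene Ccnd1. Around Cdx2 there were 6, among them a 5.91-fold peak 32.6 kb downstream in the last exon of the duodenal and pancreatic factor gene Pdx1, credited to Plut. The single such peak near Lct lay 31.2 kb upstream in exon 1 of Mcm6, at 4.56-fold. Near Spink4 there was 1, at the promoter of Bag1, 28.2 kb downstream, at 7.11-fold. No peak of another gene lay within 50 kb of the TSS of Isx, Atoh1, Sis, Dpp4, Apob, Slc10a2, Slc15a1, Guca2a or Olfm4.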
